A study of Mus musculus with 6 samples.

Results

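The RNAs described here are 9 noncoding RNAs of nuclear or housekeeping function, taken from a mouse RNA-seq count table by gene symbol. They are the long nuclear RNAs Malat1, Neat1 and Kcnq1ot1, the small structural RNAs Rn7sk, Rmrp and Rpph1, and the small nucleolar RNA (snoRNA) host genes Gas5, Snhg1 and Snhg12. All 9 symbols were found among the 49997 symbols listed, and 7 of them were among the 7792 genes with enough counts to be tested. The libraries came from small pre-B cells, the precursors that rearrange immunoglobulin light chain genes, sorted from the bone marrow of C57BL/6 mice aged 6 to 12 weeks. One group was wild type (WT) and the other carried the ΔrsCBE genotype, with 3 libraries in each. Δ denotes a deletion, whose interval the labels leave unstated. Total RNA was depleted of ribosomal RNA and made into stranded libraries, so RNAs without a poly(A) tail could be captured. The labels do not say that replicates came from separate animals, so p-values measure only the spread between these samples.

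Malat1 is a long RNA of nuclear speckles, the compartments that store splicing factors. Neat1 is the scaffold of paraspeckles, and Kcnq1ot1 is transcribed from the paternal allele of the imprinted Kcnq1 domain, where it silences neighbouring genes. Rn7sk encodes 7SK, which holds the elongation kinase P-TEFb inactive together with Hexim and Larp7 proteins. Rpph1 is the catalytic RNA of RNase P, which trims the 5′ ends of transfer RNAs and also cuts Malat1 and Neat1 at their 3′ ends, and Rmrp is the RNA of the related enzyme RNase MRP, which acts in ribosomal RNA processing. Rn7sk, Rmrp and Rpph1 are transcribed by RNA polymerase III. Gas5, Snhg1 and Snhg12 carry snoRNAs in their introns, and their spliced transcripts are turned over by nonsense-mediated decay.

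The sequences of the 3 small structural RNAs are shown, because they are short single-exon molecules and because the counts of Rpph1 relative to the other 2 separated the genotypes. That comparison was chosen after the values had been seen, and 17.8% of the 7791 other tested genes also separated the genotypes relative to Rpph1. The sequences and coordinates are those of GENCODE M21 on GRCm38, which corresponds to mm10, the build named in the submitters' processing notes. They are written 5′ to 3′ in DNA letters, and all 3 genes lie on the minus strand. Rn7sk is 331 bases long, of which the first 300 bases (chr9:78175334-78175633) are given, and capitals mark GATC, the letters of the element that Hexim proteins recognise in the 5′ hairpin of 7SK.
Rn7sk: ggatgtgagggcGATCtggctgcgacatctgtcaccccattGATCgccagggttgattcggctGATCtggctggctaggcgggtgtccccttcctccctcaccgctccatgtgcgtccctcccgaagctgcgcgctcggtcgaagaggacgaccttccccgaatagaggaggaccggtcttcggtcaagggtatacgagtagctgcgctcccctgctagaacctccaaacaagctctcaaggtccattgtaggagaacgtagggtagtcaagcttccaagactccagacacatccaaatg
Rmrp is given whole (chr4:43492788-43493058, 271 bases), and of the 319 bases of Rpph1 the first 300 bases are given (chr14:50807468-50807767). In both, capitals mark the longest run that the pair shares.
Rmrp: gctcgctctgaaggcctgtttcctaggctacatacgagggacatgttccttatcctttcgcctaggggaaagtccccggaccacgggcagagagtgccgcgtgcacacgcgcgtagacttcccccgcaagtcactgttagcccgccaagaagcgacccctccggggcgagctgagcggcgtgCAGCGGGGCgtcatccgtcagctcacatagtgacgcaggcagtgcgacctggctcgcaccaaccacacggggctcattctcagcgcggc
Rpph1: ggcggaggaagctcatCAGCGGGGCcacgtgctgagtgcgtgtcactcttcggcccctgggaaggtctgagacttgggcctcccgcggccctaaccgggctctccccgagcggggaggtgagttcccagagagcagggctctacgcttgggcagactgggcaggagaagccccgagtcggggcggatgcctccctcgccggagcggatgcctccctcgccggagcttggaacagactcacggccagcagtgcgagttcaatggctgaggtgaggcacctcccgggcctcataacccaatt
GATC occurred 3 times in Rn7sk, starting at positions 13, 42 and 64 counted from the 5′ end. The capitals mark these letters wherever they occur, and which copies belong to the Hexim element was not examined. The longest run common to Rmrp and Rpph1 was CAGCGGGGC, 9 bases long, at position 183 of Rmrp and position 17 of Rpph1. G and C made up 58.0% of Rn7sk, 64.2% of Rmrp and 67.1% of Rpph1. Rpph1 shared 284 bases with Ccnb1ip1 on the same strand, and Ccnb1ip1 was listed at 0 counts in every library. Rmrp shared 159 bases with Ccdc107 on the opposite strand, and Ccdc107 had 4 to 11 counts per library. The Rmrp sequence and length are those of the entry annotated as a ribozyme, a catalytic RNA. The Rmrp counts are by symbol, and whether they cover that entry alone is not given in the sources used here. 7SK has many near-identical copies in mammalian genomes, and how reads matching several places were counted is not given in the sources used here, so the Rn7sk counts are uncertain in that respect.

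Total counts ranged from 428106 to 1300805 per library, so that a detection floor of 3 counts lay between 2.38 and 7.36 CPM (the count of a gene relative to the total over tested genes, with TMM scaling). All 10 pre-B markers had counts, with summed levels of 11647 to 13916 CPM in WT and 12459 to 13191 CPM in ΔrsCBE. Of 8 T cell markers 3 had any count, with Cd3e, Cd3g and Trac at 0, and of 8 erythroid markers 1 had any count, with Hbb-bs and Hbb-bt at 0. Of 8 myeloid markers 6 had counts and summed to 53.1 to 83.4 CPM in WT and 55.7 to 68.2 CPM in ΔrsCBE. Of 6 NK cell markers 1 had any count. Markers of other B-lineage stages were higher. Of 6 mature B cell markers 5 had counts, summing to 339 to 417 CPM in WT and 322 to 403 CPM in ΔrsCBE. All 5 plasma cell markers had counts, summing to 103 to 128 CPM in WT and 121 to 150 CPM in ΔrsCBE. By Xist and Y-linked counts, all WT libraries and ΔrsCBE replicate 1 had a male pattern and ΔrsCBE replicates 2 and 3 a female pattern, so there was no female WT library. Mitochondrial genes took 9.76% to 12.2% of counts in WT and 9.60% to 9.84% in ΔrsCBE. Cell cycle markers were lower in ΔrsCBE. Of the 23 tested, 23 had a negative and 0 a positive log2 fold change, with a median of -1.14. At an adjusted p under 0.05 by edgeR, 16 of the 23 were called lower, against 1.49% of all tested genes. Their summed level was 7234 to 7972 CPM in WT and 3062 to 4890 CPM in ΔrsCBE, and the part of cell cycle state and of sex in the values given here was not tested. In bulk libraries such as these, a smaller share of cells with an RNA and less of it per cell cannot be told apart.

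The comparison of the genotypes asked whether these RNAs differ in abundance between WT and ΔrsCBE small pre-B cells. Of the 7 tested RNAs, 0 passed the threshold, an edgeR quasi-likelihood p-value that stayed under 0.05 after Benjamini-Hochberg adjustment over 7792 genes. Among all genes tested, 132 (1.69%) passed it, 0.205% higher and 1.49% lower in ΔrsCBE. At an unadjusted p-value under 0.05 the count was 1 of 7, Neat1, against 10.2% of all tested genes. DESeq2's Wald test also placed 0 of the 7 past the threshold. The sign of the difference was higher in ΔrsCBE for Malat1, Neat1, Kcnq1ot1, Rmrp and Gas5 and lower for Rn7sk and Rpph1. The median log2 fold change of the 7 was 0.20, against 0.01 over all tested genes. The CPM ranges of the genotypes overlapped for each of the 7, whereas they did not overlap for 16.1% of all tested genes, 7.23% higher and 8.92% lower in ΔrsCBE. The 9 RNAs together took 1.92%, 1.78% and 1.71% of the counts in the WT libraries and 1.80%, 1.77% and 2.002% in the ΔrsCBE libraries, here and below in the order of replicates 1, 2 and 3. These shares overlapped between the genotypes, and Malat1 supplied 86.0% to 91.9% of the counts behind them.

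**Figure D1:**
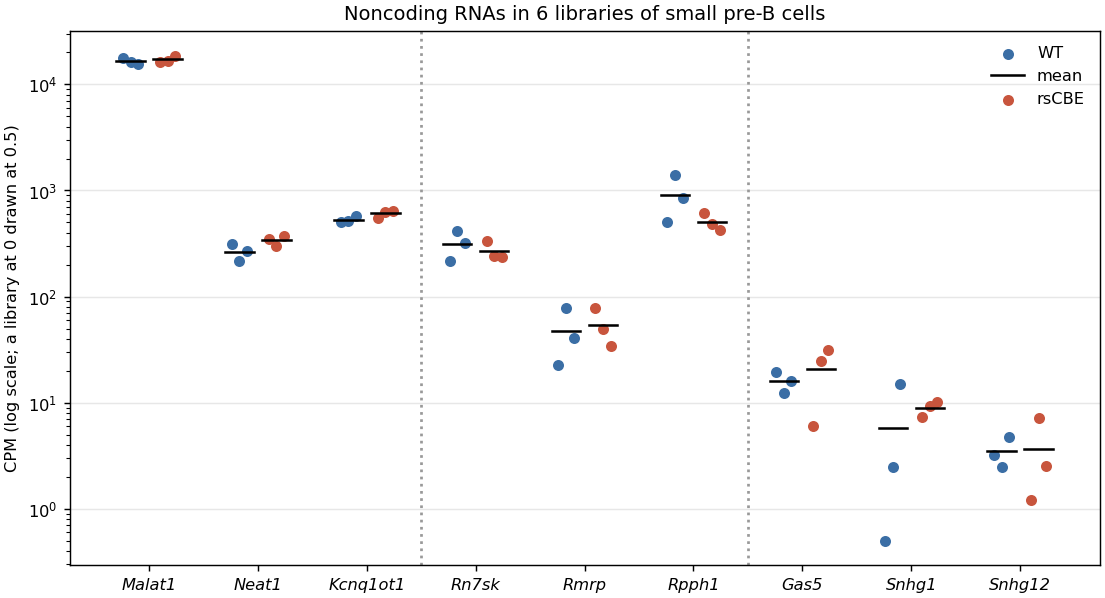
CPM of the 9 noncoding RNAs on a log axis, with 1 point per library, WT in blue and ΔrsCBE (labelled rsCBE) in red, and a bar at the mean of 3 libraries; dotted lines divide long nuclear RNAs, small structural RNAs and snoRNA hosts, and a library at 0 is drawn at 0.5. Malat1 lies far above the others with little spread, while Rpph1, Rmrp and Rn7sk spread widely and the points of both genotypes overlap for each RNA.

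Malat1 (chromosome 19, 5795690 to 5802672, minus strand, a single 6983-base exon) was the second most abundant gene of each library by counts, behind the mitochondrial ribosomal RNA gene mt-Rnr2. Its level was 17874, 16098 and 15556 CPM in the WT libraries and 16331, 16501 and 18724 CPM in the ΔrsCBE libraries. The highest value was in ΔrsCBE replicate 3 and the lowest in WT replicate 3, and the ranges overlapped. Malat1 alone took 1.51% to 1.77% of the counts in WT and 1.60% to 1.83% in ΔrsCBE, and the Wilson 95% interval at the shallowest library was 1.497% to 1.57%. The WT mean was 16509 ± 1213 CPM and the ΔrsCBE mean 17185 ± 1335 CPM (SD, n = 3), and edgeR gave a log2 fold change of 0.06 (SE 0.08, adjusted p = 0.882). The 95% interval of that difference ran from -0.11 to 0.23, the narrowest interval of the 7. The sign was negative, at -0.016 and -0.013, with a sex covariate and among male libraries alone.

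Neat1 (chromosome 19, 5824708 to 5845478, minus strand), a neighbour of Malat1 on the same strand, was measured at 312, 216 and 267 CPM in WT and 352, 299.7 and 374 CPM in ΔrsCBE. WT replicate 1 lay above ΔrsCBE replicate 2, and the other 2 WT libraries lay below all ΔrsCBE libraries. The means were 265 ± 47.9 and 342 ± 38.1 CPM (SD, n = 3). The log2 fold change was 0.35 (SE 0.13, unadjusted p = 0.0144, adjusted p = 0.283 by edgeR), with a 95% interval of 0.08 to 0.63 before any adjustment. The difference did not pass the threshold after adjustment over all genes. It kept its sign in each of 16 alternative settings, between 0.26 and 0.47, with adjusted p-values of 0.0983 or more.

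Kcnq1ot1 (chromosome 7, 143203458 to 143296549, minus strand) was at 503, 512 and 570.2 CPM in WT and at 553, 629 and 647 CPM in ΔrsCBE. WT replicate 3 lay above ΔrsCBE replicate 1, so the ranges overlapped. The means were 529 ± 36.4 and 610 ± 49.7 CPM (SD, n = 3), and the log2 fold change was 0.20 (SE 0.11, adjusted p = 0.568 by edgeR). The gene lies within Kcnq1 on the opposite strand, and Kcnq1, a potassium channel gene of the same domain, had 0 counts in every library. Among male libraries alone the difference was 0.06 (SE 0.14). Of the 14 genes listed for the imprinted domain, 7 had a count and 4 were tested, of which 0 passed the threshold or an unadjusted p-value under 0.05. The tested extremes were Nap1l4, a histone chaperone, at a log2 fold change of 0.27 and Osbpl5, a lipid-binding protein, at -0.09.

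Among the small structural RNAs, Rpph1 had the largest fitted difference and a wide spread in WT. It had 311, 566 and 1071 counts in WT and 510, 469 and 335 counts in ΔrsCBE, which correspond to 505, 1388 and 848 CPM in WT and 617, 485 and 423 CPM in ΔrsCBE. WT replicates 2 and 3 lay above all ΔrsCBE libraries, and WT replicate 1 lay below ΔrsCBE replicate 1. The WT mean was 914 ± 445 CPM and the ΔrsCBE mean 508 ± 99.3 CPM (SD, n = 3), with a log2 fold change of -0.83 (SE 0.43, adjusted p = 0.640 by edgeR). The 95% interval, from -1.99 to 0.34, spanned 0. Without WT replicate 1 the log2 fold change was -1.12 (SE 0.20) and the adjusted p-value 0.0145, so that 1 library decided on which side of the threshold Rpph1 lay. Without WT replicate 2 it was -0.42 (SE 0.21), and among male libraries alone -0.54 (SE 0.78). In WT the mitochondrial share of counts ran alongside. It was 9.76% in replicate 1, within the range of the ΔrsCBE libraries, and 12.2% and 11.6% in replicates 2 and 3, where Rpph1 was highest. Within ΔrsCBE it did not: the share was 9.60%, 9.84% and 9.66%, lowest in replicate 1, where Rpph1 was highest. Most of the share came from the mitochondrial ribosomal RNA genes mt-Rnr1 and mt-Rnr2, at 9.07%, 11.3% and 10.8% of counts in WT. The part of the mitochondrial share in the Rpph1 values was not tested.

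Rn7sk was at 214, 414 and 317 CPM in WT and at 333, 239.8 and 237 CPM in ΔrsCBE. The lowest and the highest values were both WT libraries, replicates 1 and 2. The means were 315 ± 100.1 and 270.0 ± 54.4 CPM (SD, n = 3), and the log2 fold change was -0.20 (SE 0.20, adjusted p = 0.807 by edgeR). Its sign changed to 0.10 with a sex covariate and to 0.11 among male libraries alone.

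Rmrp had few counts, 14, 32 and 51 in WT and 65, 48 and 27 in ΔrsCBE, or 22.7, 78.5 and 40.4 CPM in WT and 78.7, 49.6 and 34.1 CPM in ΔrsCBE. ΔrsCBE libraries lay within or just above the WT range. The means were 47.2 ± 28.5 and 54.1 ± 22.6 CPM (SD, n = 3), with a log2 fold change of 0.31 (SE 0.37, adjusted p = 0.852 by edgeR). Its sign turned to -0.037 when ΔrsCBE replicate 1, the library with the highest value, was left out, and it was 0.86 (SE 0.34, adjusted p = 0.260) among male libraries alone.

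The structural RNAs had a wider spread between replicates than the long RNAs. The pooled SD of log2 CPM within genotypes was 0.39 for Rn7sk, 0.55 for Rpph1 and 0.72 for Rmrp. It was 0.11 for Malat1 and for Kcnq1ot1 and 0.22 for Neat1. Among the 3869 tested genes with a mean of at least 50 CPM, 94.3% varied less than Rn7sk, 99.1% less than Rpph1 and 99.7% less than Rmrp, while 13.3% varied less than Malat1 and 14.4% less than Kcnq1ot1. These genes were not matched for abundance, and counting error is larger for scarce genes. By mean CPM among tested genes, Rmrp was at rank 3835 (50.7 CPM) and Malat1 at rank 2. Rpph1 (rank 152) and Rn7sk (rank 623) lay nearer to Kcnq1ot1 (rank 224) and Neat1 (rank 594). Across the 6 libraries, log2 CPM of Rn7sk correlated with that of Rpph1 at r = 0.901 and with that of Rmrp at r = 0.834, values given as a description because the RNAs share libraries and depth. In WT the order of the libraries was the same for all 3 RNAs, lowest in replicate 1 and highest in replicate 2, and in ΔrsCBE all 3 were highest in replicate 1 and lowest in replicate 3. Neat1 and Rpph1 ran in opposite directions over the libraries, at r = -0.891.

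**Figure D2:**
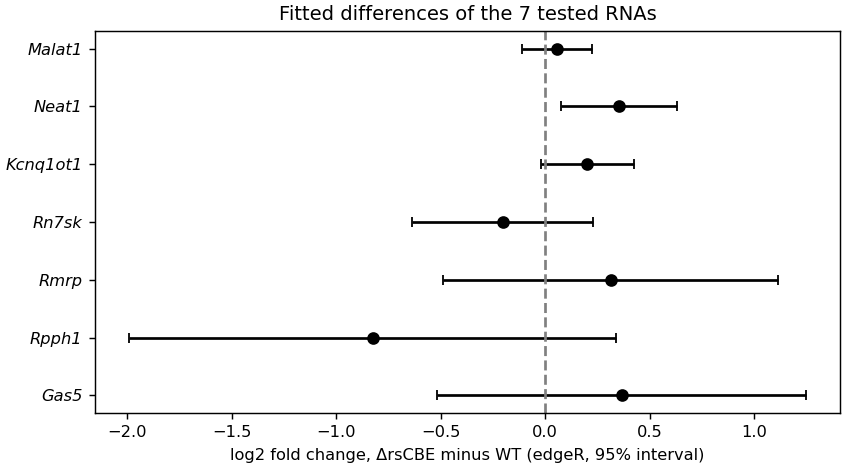
Log2 fold change of ΔrsCBE over WT for the 7 tested RNAs from edgeR, with points for the estimate and bars for the 95% interval before adjustment. The interval of Malat1 is the narrowest, from -0.11 to 0.23, that of Rpph1 the widest, from -1.99 to 0.34, and only that of Neat1 leaves out 0.

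The structural RNAs varied together between libraries, so each count was also expressed per count of another RNA of the same library, a comparison chosen after the values had been seen. Rpph1 had 22.2, 17.7 and 21 counts per Rmrp count in WT and 7.85, 9.77 and 12.4 in ΔrsCBE. All WT libraries lay above all ΔrsCBE libraries, with means of 20.3 ± 2.34 and 10.01 ± 2.29 (SD, n = 3) and a log2 difference of -1.04. The exact 95% intervals from counting alone were wide where Rmrp counts were few, from 13.04 to 41.1 in WT replicate 1, and they overlapped between some libraries of different genotype, such as WT replicate 2 at 12.4 to 26.1 and ΔrsCBE replicate 3 at 8.38 to 19.1. Rpph1 per Rn7sk count was 2.36, 3.35 and 2.68 in WT and 1.85, 2.02 and 1.78 in ΔrsCBE. Here too the genotypes did not overlap, with means of 2.79 ± 0.507 and 1.89 ± 0.123 (SD, n = 3) and a log2 difference of -0.55. With each library left out in turn the log2 difference ran from -1.21 to -0.88 for the first ratio and from -0.67 to -0.42 for the second; that the groups stayed apart follows from their not overlapping in the full set. The third pair, Rn7sk per Rmrp, was 9.43, 5.28 and 7.84 in WT and 4.23, 4.83 and 6.96 in ΔrsCBE, and these ranges overlapped.

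Of the 21 ratios between tested RNAs, 3 separated the genotypes, the other being Malat1 per Neat1 at 57.4, 74.6 and 58.3 in WT and 46.4, 55.1 and 50.1 in ΔrsCBE. Each of the 3 had an exact two-sided permutation p of 0.1, the smallest that 3 against 3 libraries can give, and 0.63 after Benjamini-Hochberg adjustment over the 21. Separation of this kind was common in the table. Of the 7791 other tested genes, 17.8% did not overlap per Rpph1 count, 17.7% being higher and 0.141% lower relative to it in ΔrsCBE. Per Neat1 count 24.9% did not overlap, 24.5% being lower and 0.398% higher in ΔrsCBE. Rmrp, Rn7sk and Malat1 thus shared their separation with many other genes.

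**Figure D3:**
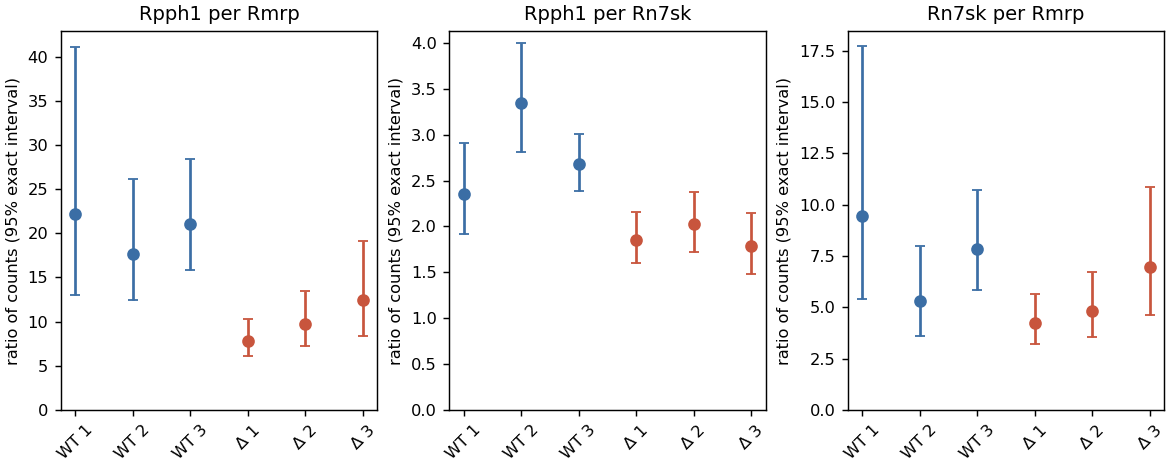
Ratios of counts among the small structural RNAs in each library, WT in blue and ΔrsCBE (Δ) in red, with bars for the exact 95% interval from counting error alone; all axes are linear and start at 0. Rpph1 per Rmrp and Rpph1 per Rn7sk are higher in all WT libraries than in all ΔrsCBE libraries, while Rn7sk per Rmrp overlaps between genotypes.

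On a scale of CPM per kilobase of annotated exon, Rpph1 and Malat1 led in WT at 2864 ± 1396 and 2364 ± 174 (SD, n = 3). The scale takes the whole annotated length as transcribed and RNAs of all lengths as captured equally. Neither was tested, so the order of different genes on it is only a rough guide. Their order was the reverse in ΔrsCBE, at 1594 ± 311 for Rpph1 and 2461 ± 191 for Malat1, and in WT the gap was within the spread of Rpph1. Rn7sk followed at 952 ± 303 and 816 ± 164, and Rmrp at 174 ± 105 and 199.7 ± 83.5. Neat1, at 12.7 ± 2.31 in WT and 16.5 ± 1.84 in ΔrsCBE, and Kcnq1ot1, at 5.68 ± 0.391 and 6.55 ± 0.534, were far lower, over 20771 and 93092 annotated bases. Gas5 was at 4.22 ± 0.959 and 5.53 ± 3.52, and Snhg1 and Snhg12 were at or below 2.99. In ΔrsCBE the gap between Gas5 and Kcnq1ot1 was within the spread of Gas5.

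The snoRNA hosts were near the limit of detection. Gas5 (chromosome 1, 161034422 to 161038539, plus strand) had 12, 5 and 20 counts in WT and 5, 24 and 25 in ΔrsCBE, or 19.5, 12.3 and 15.8 CPM in WT and 6.05, 24.8 and 31.6 CPM in ΔrsCBE. The lowest value was the male ΔrsCBE library and the highest values were the 2 female ones, with all WT libraries in between. The means were 15.9 ± 3.604 and 20.8 ± 13.2 CPM (SD, n = 3), and the log2 fold change was 0.37 (SE 0.43, adjusted p = 0.845 by edgeR). With a sex covariate, or among male libraries alone, the log2 fold change was -1.39, a value that rests on the 5 counts of ΔrsCBE replicate 1. Gas5 shares 428 bases with Zbtb37 on the opposite strand, which had 32 to 80 counts per library, and whether counting used the strand is not given in the sources used here.

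Snhg1 (chromosome 19, 8723475 to 8726443, plus strand) had 0, 1 and 19 counts in WT and 6, 9 and 8 in ΔrsCBE and did not pass the count filter. WT replicate 3, the deepest library, held 19 of its 20 WT counts, and the 0 in WT replicate 1 allows up to 4.87 CPM. Snhg12 (chromosome 4, 132308623 to 132311024, plus strand) had 2, 1 and 6 counts in WT and 1, 7 and 2 in ΔrsCBE, 19 in all. Differences between genotypes were not detectable for either at this depth. In a fit without the count filter the log2 fold changes were 0.14 (SE 0.54) for Snhg1 and -0.01 (SE 0.76) for Snhg12.

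Other snoRNA hosts were as scarce: 17 of 18 listed genes had a count, with 335 counts over the 6 libraries, and 2 were tested. Snhg5 had a log2 fold change of 0.61 (SE 0.48, adjusted p = 0.749 by edgeR) and Snhg20 of 0.56 (SE 0.44, adjusted p = 0.748). Their list summed to 46.7 to 78.5 CPM in WT and 72.6 to 92.2 CPM in ΔrsCBE, ranges that overlapped. The snoRNAs that were listed were hardly counted. Of 10 snoRNAs of Gas5, 1 was listed by its symbol, with 5 counts, and of 8 of Snhg1, 1 was listed, with 11 counts. All 4 of Snhg12 were listed, with 7 counts in all. The levels of the unlisted snoRNAs are unknown here. Of 25 other small structural RNAs, such as 7SL, Y RNAs and the telomerase RNA, 18 were listed and 6 had any count, 21 counts in all.

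Nonsense-mediated decay factors, which turn over the spliced hosts, had 10 of 10 genes tested and 0 past the threshold. An unadjusted p-value under 0.05 by edgeR was reached by 2, against 10.2% of all tested genes, of which 1.69% passed the threshold. Of the 10, 8 had a positive and 2 a negative sign, while 48.2% of all tested genes had a negative sign. The median log2 fold change was 0.11, against 0.01 over all tested genes. The extremes were Smg5 (log2 fold change 0.41, SE 0.17, adjusted p = 0.354 by edgeR), which acts in the dephosphorylation of Upf1, and Smg8 (-0.12), a regulator of the kinase Smg1. Among male libraries alone, which leaves 1 ΔrsCBE library, Smg5 passed the threshold at 0.69 (adjusted p = 0.0395).

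DESeq2's Wald test also called 0 genes in the decay factors and in the lists that follow, cell cycle markers aside. Of 14 paraspeckle proteins 13 were tested, and 0 passed the threshold or an unadjusted p-value under 0.05. The median log2 fold change was 0.04. Their extremes were Rbm14, a paraspeckle protein, at 0.33 (SE 0.28) and Cirbp, a cold-inducible RNA-binding protein, at -0.34 (SE 0.33). Hnrnpk, which influences Neat1 isoform choice, was at 759, 763 and 642 CPM in WT and 396, 795 and 655 CPM in ΔrsCBE. The male ΔrsCBE library had the lowest Hnrnpk level, and Hnrnpk passed the threshold with a sex covariate (log2 fold change -0.86, SE 0.15, adjusted p = 0.00178), a fit in which the genotype difference rests on that library. For the processing and stability of the Malat1 3′ end, Elac2, the nuclease that trims the cleaved tRNA-like fragment, was at 0.18 (SE 0.28) and Mettl16, which binds the Malat1 triple helix, at -0.46 (SE 0.26, adjusted p = 0.594).

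Among proteins of the 7SK complex and P-TEFb, 7 of 8 were tested and 0 passed the threshold. An unadjusted p-value under 0.05 by edgeR was reached by 2 of the 7, against 10.2% of all tested genes. The median log2 fold change was 0.21. Larp7, which binds and stabilises 7SK, was at 34.1, 34.3 and 37.2 CPM in WT and 16.9, 26.9 and 22.7 CPM in ΔrsCBE. The log2 fold change was -0.67 (SE 0.29, unadjusted p = 0.0294, adjusted p = 0.394 by edgeR). Ccnt2, a cyclin of P-TEFb, had the opposite sign at 0.31 (SE 0.14, adjusted p = 0.445). The groups did not overlap for 3 of the 7, against 16.1% of all tested genes. Larp7 was lower in ΔrsCBE, and Ccnt2 and Hexim1 were higher. Hexim1, an inhibitor of P-TEFb, was at 64.9 to 80.8 CPM in WT and 84.7 to 96.0 CPM in ΔrsCBE. In other lists, cell cycle markers aside, the CPM ranges of some tested genes did not overlap either. They were lower in ΔrsCBE for Nono, Tardbp and Norad. They were higher for Dazap1, Polr3d, Polr3e, Brf1, Maf1 and Upf1.

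Protein subunits of RNase P and RNase MRP were low, with 2 of 11 tested and 0 past the threshold. Of the 2, 1 had an unadjusted p-value under 0.05 by edgeR, Pop1, against 10.2% of all tested genes. Pop1, the largest subunit, was at 14.6, 12.3 and 13.5 CPM in WT and 24.2, 33.1 and 13.9 CPM in ΔrsCBE. ΔrsCBE replicate 3 lay close to the WT libraries, and the log2 fold change was 0.82 (SE 0.37, unadjusted p = 0.0359, adjusted p = 0.426 by edgeR). Pop4, the other tested subunit, was at 0.06 (SE 0.30).

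RNA polymerase III subunits and factors had 27 of 30 genes tested and 0 past the threshold. An unadjusted p-value under 0.05 by edgeR was reached by 2 of the 27, against 10.2% of all tested genes. Of the 27, 15 had a positive and 12 a negative sign, while 48.2% of all tested genes had a negative sign. The median log2 fold change was 0.02. The extremes were Polr3d, a subunit of the polymerase (0.82, SE 0.34, adjusted p = 0.351 by edgeR), and Tbp, the TATA-binding protein (-0.43, SE 0.26). Other long noncoding RNAs had 6 of 16 tested and 0 past the threshold or an unadjusted p-value under 0.05. The extremes were Firre, an X-linked nuclear RNA, at 0.45 and Norad, a cytoplasmic RNA that binds Pumilio proteins, at -0.39. Firre was at 17.8, 34.3 and 22.2 CPM in WT and 19.4, 30.0 and 48.0 CPM in ΔrsCBE. The male ΔrsCBE library lay within the WT range, and the highest value was a female library. The part of sex in these values was not tested.

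**Figure D4:**
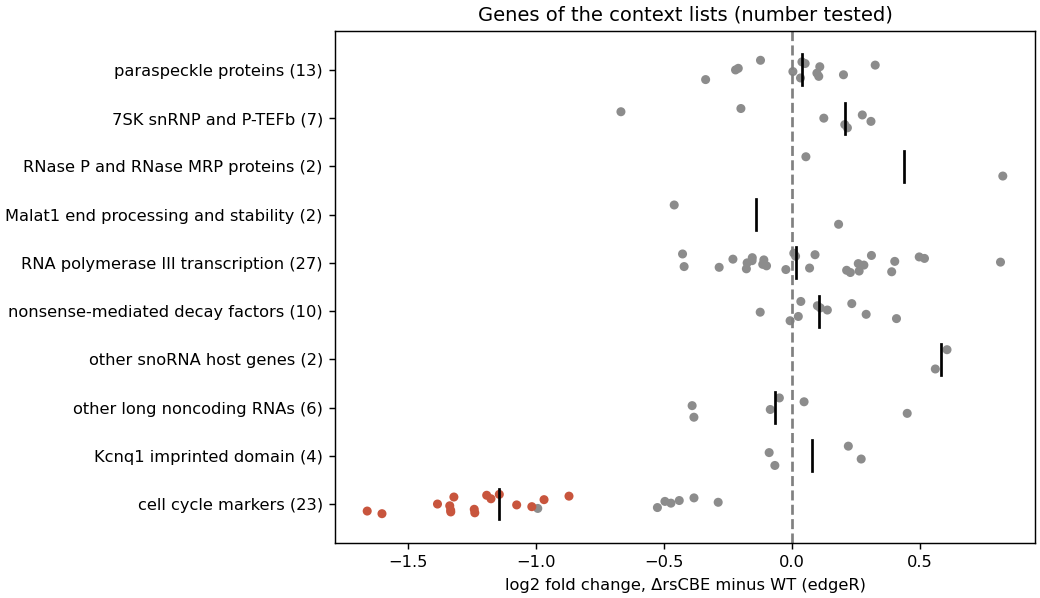
Log2 fold change of ΔrsCBE over WT for each tested gene of the related gene lists, with the number tested in brackets, red for genes past an adjusted p of 0.05, grey for the others, and a black bar at each median; vertical scatter within a list carries no value. Red points occur only among the cell cycle markers, 16 of 23. The medians of the other lists run from -0.14 for Malat1 end processing to 0.58 for other snoRNA hosts, each of which had 2 genes tested.

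The cell cycle markers were the exception among the lists. Ccna2, a cyclin of S and G2 phase, fell from 204 ± 16.98 to 85.5 ± 12.4 CPM (SD, n = 3; log2 fold change -1.24, SE 0.16, adjusted p = 4.17e-05 by edgeR). Bub1b, a spindle checkpoint kinase, fell by 1.33 on the log2 scale (SE 0.17), and so did Cenpf, a kinetochore protein, by 1.34 (SE 0.18). Bub1 had the lowest log2 fold change of the list, -1.66 (SE 0.31), and Mcm3, a subunit of the replicative helicase, the highest, -0.29, and did not pass. In the same libraries Malat1 was at 0.06 and Kcnq1ot1 at 0.20, while the 95% interval of Rpph1, from -1.99 to 0.34, included the median of the cell cycle markers.

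The tested genes whose log2 CPM ran most like that of the most abundant RNA of each role were ranked by Pearson's r over the 6 libraries among 7791 genes. For Malat1 they were Gm20783 (r = 0.989), Pld3 (r = 0.964) and Rab31 (r = 0.956). For Rpph1 they were Emp3 (r = 0.989), Gm9118 (r = 0.984) and Bzw1 (r = 0.983), and for Gas5 they were Srp68 (r = 0.997), Ythdc1 (r = 0.991) and Irak4 (r = 0.988). These values are a description over libraries that share depth and scaling, and carry no test.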

How the data were processed

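RNA from sorted small pre-B cells was measured in 6 libraries, 3 per genotype, grouped by the genotype label. The authors deposited raw read counts, as whole numbers by gene symbol. The submitters' processing notes name Trim Galore 0.6.10, STAR 2.7.11, HTSeq, DESeq2 and the build mm10, with no role or order. The annotation, the strand setting and any filter are not given in the sources used here. Input was 1 µg of RNA per the labels' protocols.

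From these counts, genes were kept by filterByExpr (minimum count 10), scaled by TMM and fitted with edgeR 4.0.16 in R 4.3.3 (glmQLFit, robust; glmQLFTest; genotype as the sole factor). P-values were adjusted by Benjamini-Hochberg over all 7792 tested genes with a threshold of 0.05, and standard errors were derived from the F statistic. CPM are counts scaled to a common total of counts in tested genes, and log2 CPM used a prior count of 2. Ratios were compared with exact permutation tests (scipy 1.17.1). Alternatives covered the scaling, the test (DESeq2 1.42.0), the count filter, the threshold, each library left out, a replicate block and sex, read from Xist and Y-linked counts. The procedure was tested on simulated data, in which the changed genes were abundant and replicates spread less than for Rpph1 and Rmrp. That test does not show what differences could be detected for such variable or scarce RNAs. Totals of 428106 to 1300805 counts limit the precision for scarce RNAs. Intervals (Wilson for shares, exact for ratios, 95%) and the floor of 3 counts cover counting error only. Coordinates, lengths and sequences are from GENCODE M21.

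The RNAs and the gene lists were chosen with earlier results of these data known. Text names all 9 RNAs, in each list the genes past the threshold (at most 5, smallest p first) and the tested genes with the highest and lowest log2 fold change, and 3 genes correlating best with the most abundant RNA of each role. For the cell cycle list 3 of the 5 are described. Hnrnpk, Hexim1 and the genes of other lists named for CPM ranges that did not overlap were added after their values were seen. Replicates of a genotype differed by more than counting noise, with 1.88 to 3.41 for chi-square over its degrees of freedom.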

Additional observations from a re-analysis of the deposited data

How the results depend on the processing

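Genotype and sex can be separated here only through ΔrsCBE replicate 1, the lone male ΔrsCBE library, since no WT library had a female pattern. The count of genes past the threshold, 132, was 87 with a sex covariate, in which the genotype difference rests on ΔrsCBE replicate 1, and 59 to 187 when each library was left out in turn, 59 both without WT replicate 3 and without ΔrsCBE replicate 3. Of the noncoding RNAs, between 0 and 1 passed the threshold with a library left out, the 1 being Rpph1 without WT replicate 1, and 0 passed in every other setting. In the related lists, cell cycle markers aside, 0 genes passed in the fit reported and with each library left out, 1 (Hnrnpk) with the sex covariate and 2 (Hnrnpk and Smg5) among male libraries alone, a setting chosen after seeing the data in which the lone ΔrsCBE library is assumed to vary as the WT libraries do. Differences changed sign with the sex covariate for Gas5 (-1.39), Malat1 (-0.016) and Rn7sk (0.10), and among male libraries for Gas5 (-1.39), Malat1 (-0.013) and Rn7sk (0.11). With each library left out in turn, the log2 fold change ranged from -0.023 to 0.78 for Gas5 and from -0.0094 to 0.12 for Malat1, both negative without ΔrsCBE replicate 3. It ranged from -0.037 (without ΔrsCBE replicate 1) to 0.69 for Rmrp and from -0.41 to 0.0037 (without WT replicate 2) for Rn7sk. None of these passed the threshold in either direction, and the cause was not tested. Cell cycle markers past the threshold numbered 9 with the sex covariate and 11 to 17 in the other settings. The number of genes called higher, 16, was 9 by DESeq2, 25 and 31 with looser count filters, 30 at an adjusted p under 0.1, 41 among male libraries and 6 (without ΔrsCBE replicate 3) to 44 (without ΔrsCBE replicate 1) with each library left out, being 7 without WT replicate 3 and 34 without ΔrsCBE replicate 2. The number called lower, 116, was 72 with the sex covariate and 52 (without WT replicate 3) to 153 (without ΔrsCBE replicate 2) with each library left out, being 53 without ΔrsCBE replicate 3. Changes of scaling moved no call among the 7 RNAs. Replicates with the same number in the labels did not deviate together (correlations 0.0131, 0.0197 and 0.00908), so the numbers were not taken as pairs. With a replicate block, 136 genes, 0 of the noncoding RNAs, 16 cell cycle markers and 0 genes of the other related lists passed, and not every library correlated best with its own number. Depth limits what can be said of Snhg1, Snhg12 and Gas5.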
